A study of Rattus norvegicus with 8 samples.

Results

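Transforming growth factor beta (TGF-beta) and the bone morphogenetic proteins (BMPs) are secreted ligands of one superfamily, and 48 genes of their pathway were read out in the rat hippocampus after a short infusion of corticosterone. The genes were chosen by a rule on their names, written with earlier results of these data known: ligands (Tgfb, Bmp, Gdf and the inhibin and activin beta subunits), the latent binding proteins, the Acvr, Bmpr and Tgfbr receptors with Eng and Bambi, the SMADs, the antagonists Nog and Chrd, the ubiquitin ligases Smurf1 and Smurf2, and the target genes Id1 to Id4. They make up 48 of the 13272 gene symbols that had a value, and 59 of the 16266 transcripts. Where a symbol had several transcripts, as 10 of the 48 did, the one with the highest mean level was taken. Other genes that the same naming would take in were not analysed here. Among them are Inhba, Inhbc, Inhbe, Ltbp2, Fst and Smad9, and further ligands such as Bmp2 and Bmp5.

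The ligands bind a pair of serine/threonine kinase receptors, called type I and type II, and the type I receptor then phosphorylates a SMAD protein that enters the nucleus with the common partner Smad4. TGF-beta and activin ligands act through Smad2 and Smad3, and BMPs through Smad1, Smad5 and Smad9. In the adult hippocampus BMP signalling is known for holding neural stem cells of the dentate gyrus in quiescence, with Noggin opposing it, and TGF-beta is known for its part in microglial and vascular homeostasis.

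The 8 rats, Sprague-Dawley and aged 3 to 4 months by their labels, had all been adrenalectomized (ADX), which removes the source of their own corticosterone. The vehicle group of 4 rats, which the sample titles call untreated, received 0.45% saline and the CORT group of 4 rats received corticosterone-2-hydroxypropyl-beta-cyclodextrin at 0.75 mg/mL, both infused for 30 min at ZT 2, in the early light phase. The methods of the study describe male Lister hooded rats, give both groups low-dose corticosterone in their drinking solution after surgery with a washout before the experiment, and place collection 2 h after the start of the infusion. RNAseq was made from whole hippocampi, so fewer cells of a type and less RNA per cell cannot be told apart. The comparison asks which hippocampal transcripts differ when corticosterone is given back to rats that lack it.

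The deposited table has 1 level per transcript for each group of 4 rats, in FPKM, a fragment count scaled by transcript length and library size. Every level given here is that group value. No value of a single rat was used, so the spread between rats is unknown, the overlap of the groups cannot be judged, no test was run, and every difference is a description of 2 group values. The depth of the libraries is unknown for the same reason. Differences are given as the log2 ratio of CORT over vehicle FPKM without a pseudocount, and a gene is counted as past the fold when that ratio is at least 1.5 in either direction. Known targets of the glucocorticoid receptor followed the labels: Sgk1 was at 28.5 FPKM after vehicle and 70.4 FPKM after CORT, Per1 at 10.2 and 19.7 FPKM, Tsc22d3 at 36.5 and 69.6 FPKM, and Fkbp5 at 18.6 and 33.8 FPKM. Among markers of the tissue, Camk2a and Slc17a7 of excitatory neurons were at 593 and 736 FPKM in the vehicle group.

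Most pathway genes lay a little lower in the CORT group, and few lay far from equality. Of the 48 genes, 31 were lower and 17 higher. The lower ones were 64.6% of the 48, where 45.8% of all symbols were lower. The median log2 ratio of the 48 genes was -0.074, against 0.018 over all symbols. Id3, Smad6 and Ltbp1 were lower by at least 1.5-fold, which is 6.25% of the 48 genes, where 3.99% of all symbols were past that fold in the same direction. None of the 48 was higher by at least 1.5-fold, where 1.92% of all symbols were. At a milder limit of 0.32 on the log2 scale, 12 genes were lower, which is 25% of the 48 against 9.52% of all symbols, and 1 gene, Tgfb3, was higher, which is 2.08% against 5.88%. The other 35 genes differed by less than that. These shares are set beside each other without a test, since the genes of a pathway are not independent of each other. With genes whose mean level was under 1 FPKM left out (Ltbp1, Smad6 and Acvr2b), Id3 alone of 45 genes was past 1.5-fold, 2.22% of them, where 3.06% of all symbols with that mean were lower and 1.66% higher by that fold.

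**Figure D1:**
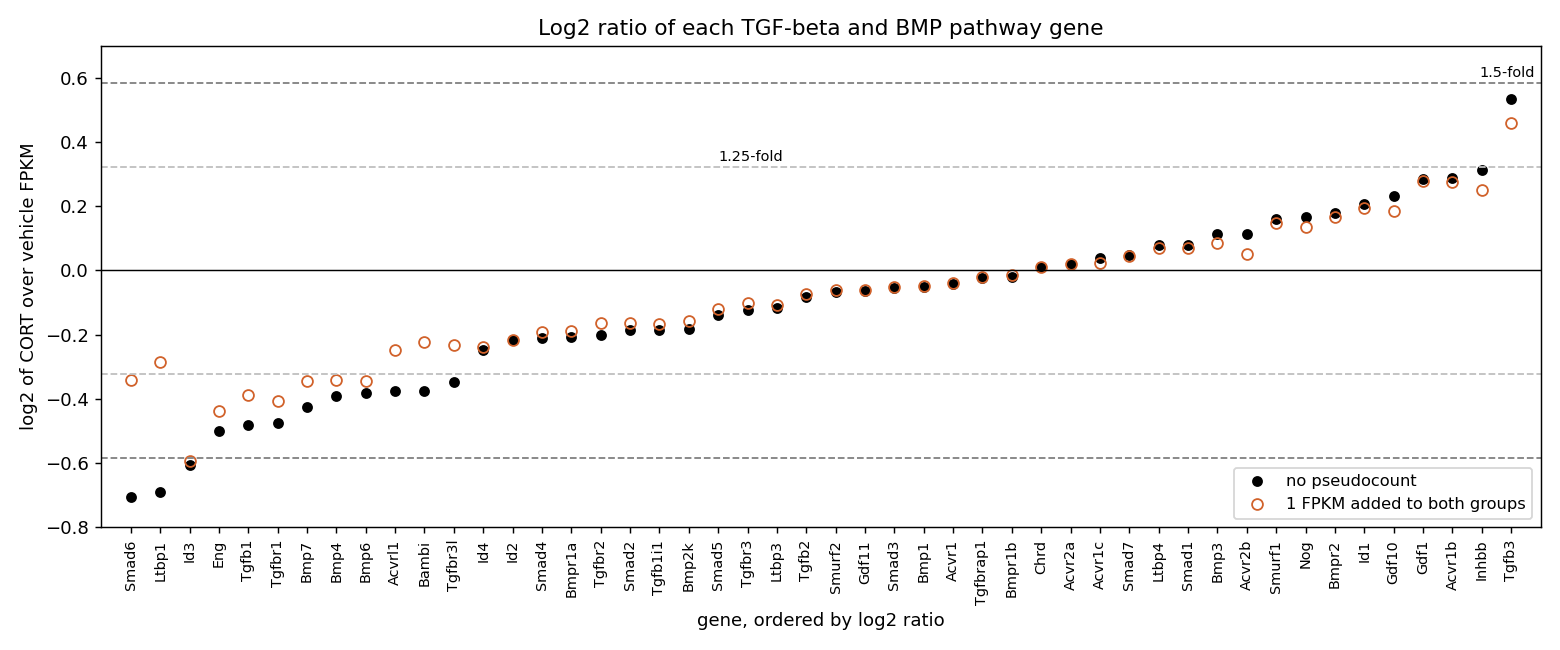
Log2 ratio of CORT over vehicle FPKM (vertical axis) for each of the 48 pathway genes in order of that ratio, without a pseudocount (black points) and with 1 FPKM added to both groups (open circles); dashed lines mark 0.32 and 0.58 (1.5-fold). Smad6, Ltbp1 and Id3 lie below the lower 1.5-fold line, and of these Id3 alone is still past it when 1 FPKM is added.

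**Figure D2:**
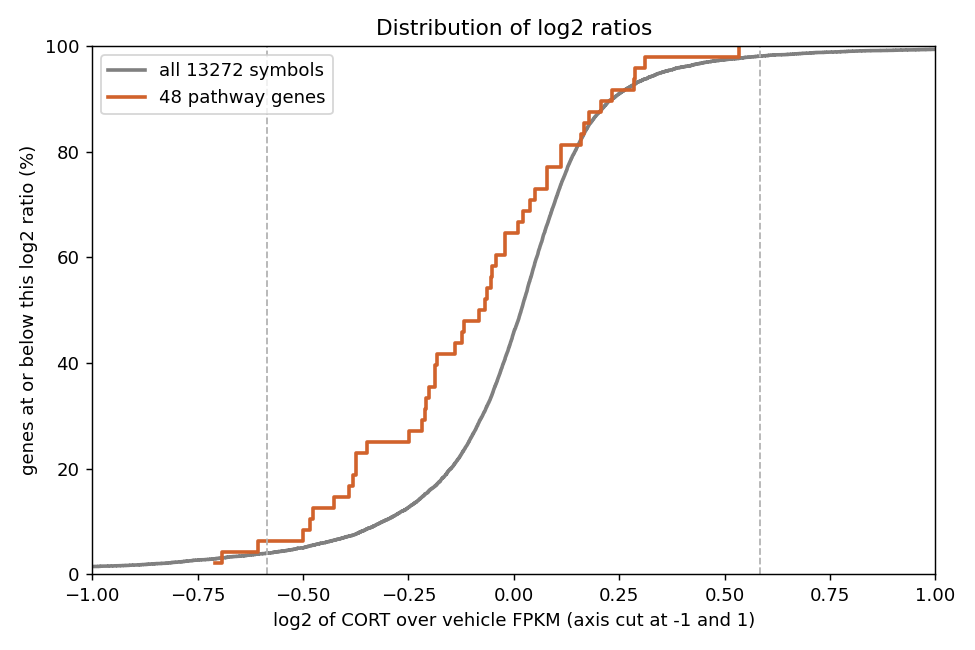
Share of genes (vertical axis, %) at or below each log2 ratio (horizontal axis) for all 13272 symbols (grey) and the 48 pathway genes (orange); dashed lines mark 1.5-fold. At a ratio of 0 the orange curve has passed 64.6% of the pathway genes and the grey curve 45.8% of all symbols.

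The start of a gene is where SMADs and the glucocorticoid receptor can act, so the 250 bases before the start are shown for 6 genes that the results turn on: Id1 and Id3, which lay on opposite sides of equality, Tgfb1 and Tgfb3, which did the same, Eng, the co-receptor with the lowest ratio, and Smad7, an inhibitory SMAD that differed little. The sequences are RefSeq promoter windows of the rat assembly GRCr8, which is not the rn6 build of the expression values, and 41 of the 48 symbols had a window. Capitals mark every GGCGCC (a GC-rich SMAD site), GTCTG (a short SMAD element) and AGAACA (one arm of a glucocorticoid response element), found on either strand, so that CAGAC is GTCTG read on the other strand.
Id1, GRCr8 chr3:161671314-161671563, plus strand: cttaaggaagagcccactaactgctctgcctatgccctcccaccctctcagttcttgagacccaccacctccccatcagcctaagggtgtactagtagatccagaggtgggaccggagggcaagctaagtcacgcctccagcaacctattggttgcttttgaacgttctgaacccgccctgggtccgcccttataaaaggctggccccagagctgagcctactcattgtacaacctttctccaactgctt
Id3, GRCr8 chr5:153656041-153656290, plus strand: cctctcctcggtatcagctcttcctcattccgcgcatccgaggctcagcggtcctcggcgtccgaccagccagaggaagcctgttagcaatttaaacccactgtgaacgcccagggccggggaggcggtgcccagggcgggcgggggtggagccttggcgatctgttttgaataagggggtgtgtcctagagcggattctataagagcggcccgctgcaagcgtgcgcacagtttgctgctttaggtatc
Tgfb1, GRCr8 chr1:90324062-90324311, plus strand: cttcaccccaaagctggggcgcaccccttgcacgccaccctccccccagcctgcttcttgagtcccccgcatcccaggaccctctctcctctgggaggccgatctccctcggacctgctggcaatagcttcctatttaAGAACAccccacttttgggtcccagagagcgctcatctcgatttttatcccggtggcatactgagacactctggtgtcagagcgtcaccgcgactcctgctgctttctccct
Tgfb3, GRCr8 chr6:111456947-111457196, minus strand: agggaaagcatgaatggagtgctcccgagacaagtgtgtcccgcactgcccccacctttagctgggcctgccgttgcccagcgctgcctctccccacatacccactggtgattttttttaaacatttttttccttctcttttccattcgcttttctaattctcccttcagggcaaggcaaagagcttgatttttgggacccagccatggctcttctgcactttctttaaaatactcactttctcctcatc
Eng, GRCr8 chr3:36332029-36332278, plus strand: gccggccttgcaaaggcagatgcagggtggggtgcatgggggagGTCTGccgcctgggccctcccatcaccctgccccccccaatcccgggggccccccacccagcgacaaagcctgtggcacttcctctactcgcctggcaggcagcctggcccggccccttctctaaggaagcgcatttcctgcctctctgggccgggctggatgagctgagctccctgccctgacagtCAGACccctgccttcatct
Smad7, GRCr8 chr18:71263258-71263507, plus strand: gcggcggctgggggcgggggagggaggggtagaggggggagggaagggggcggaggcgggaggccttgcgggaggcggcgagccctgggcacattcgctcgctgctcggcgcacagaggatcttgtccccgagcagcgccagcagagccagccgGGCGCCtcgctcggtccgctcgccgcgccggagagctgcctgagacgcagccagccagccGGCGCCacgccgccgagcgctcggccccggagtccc

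None of these letters is in the windows of Id1, Id3 or Tgfb3, which says only that they are not in these 250 bases. The Tgfb1 window holds 1 AGAACA, which begins 112 bases before the start. GTCTG is present in the Eng window 2 times, 206 and 19 bases before the start, and GGCGCC in the Smad7 window 2 times, 96 and 36 bases before it. Over the 41 windows of pathway genes, 26.8% held GGCGCC, against 8.69% of all 33469 windows and 17.4% of the 9624 windows of symbols with an expression value. The windows of pathway genes were also richer in G and C, with a median of 67.6% against 60.4% for symbols with a value, and the part of base composition in that share was not tested. GTCTG was in 17.1% of the pathway windows, 42.9% of all windows and 41.9% of those with an expression value, and AGAACA in 14.6%, 17.5% and 10.5%. The E-box CACGTG was found in 7.32% of the pathway windows (Acvr1b, Bmp4 and Tgfb2), 5.59% of all and 8.06% of those with a value. The palindrome GTCTAGAC and the full glucocorticoid response element, which is AGAACA, any 3 bases and its reverse complement, were in no pathway window, and in 0.173% and 0.012% of all windows.

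The 3 TGF-beta ligands lay apart in their ratios. Tgfb1, the form best known from microglia and blood cells, was at 4.83 FPKM after vehicle and 3.46 FPKM after CORT (rn6 chromosome 1, 82480194 to 82497199), a log2 ratio of -0.48. Tgfb3, on chromosome 6 between 109913756 and 109935533, went the other way, from 5.19 to 7.51 FPKM, and its log2 ratio of 0.53 was the highest of the 48 genes and the 313th highest of all symbols. The level of Tgfb3 was thus 1.07 times that of Tgfb1 in the vehicle group and 2.17 times in the CORT group. Tgfb2, the most abundant of the 3 at 10.7 and 10.1 FPKM, was nearly equal in both groups (log2 ratio -0.082). A second Tgfb2 transcript was at 2.44 FPKM after vehicle and 2.57 FPKM after CORT.

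Among the BMP and growth differentiation factor (GDF) ligands, Bmp4, Bmp6 and Bmp7 were each lower in the CORT group by a similar amount. Bmp6, the most abundant BMP ligand here, was at 11.1 FPKM after vehicle and 8.52 FPKM after CORT (chromosome 17, 26955141 to 27112820; log2 ratio -0.38). Bmp4, a ligand that acts on hippocampal stem cells, was at 8.08 and 6.16 FPKM (chromosome 15, 20776053 to 20822740; log2 ratio -0.39), and its minor transcript at 1.38 and 1.35 FPKM. Bmp7, another ligand of the BMP receptors, was at 4.94 and 3.68 FPKM (chromosome 3, 170879972 to 170955399; log2 ratio -0.43). In percent of the vehicle level, the differences of these 3 ligands lay between -25.6% and -23.2%. Bmp3, an atypical BMP that opposes the others, was at 3.32 FPKM after vehicle and 3.59 FPKM after CORT. The GDFs did not share that direction as a group: Gdf1 was at 39.7 and 48.3 FPKM, Gdf10 at 3.64 and 4.28 FPKM, and Gdf11 at 14.0 and 13.4 FPKM. Gdf1 shares a bicistronic transcript with the ceramide synthase gene Cers1 in mammals, so its value, the highest of any ligand here, may count reads of both. Inhbb, which encodes the beta B subunit of activin and inhibin, was at 3.60 FPKM after vehicle and 4.47 FPKM after CORT, a log2 ratio of 0.31, just short of the milder limit.

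Outside the cell, latent binding proteins tether TGF-beta to the matrix, and antagonists capture BMPs. Ltbp1 was at 0.887 FPKM after vehicle and 0.549 FPKM after CORT (chromosome 6, 21203501 to 21600451), and its log2 ratio of -0.69 shrank to -0.28 with 1 FPKM added to both values. Ltbp3 was at 11.4 and 10.5 FPKM, and Ltbp4 at 8.08 and 8.53 FPKM, so the abundant latent binding proteins were close to equal. The antagonist Chrd (chordin) was at 16.6 FPKM after vehicle and 16.7 FPKM after CORT, the closest to equality of all 48 genes, and Nog (noggin) was at 4.12 and 4.62 FPKM. Neither antagonist thus shared the lower side of Bmp4, Bmp6 and Bmp7.

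**Figure D3:**
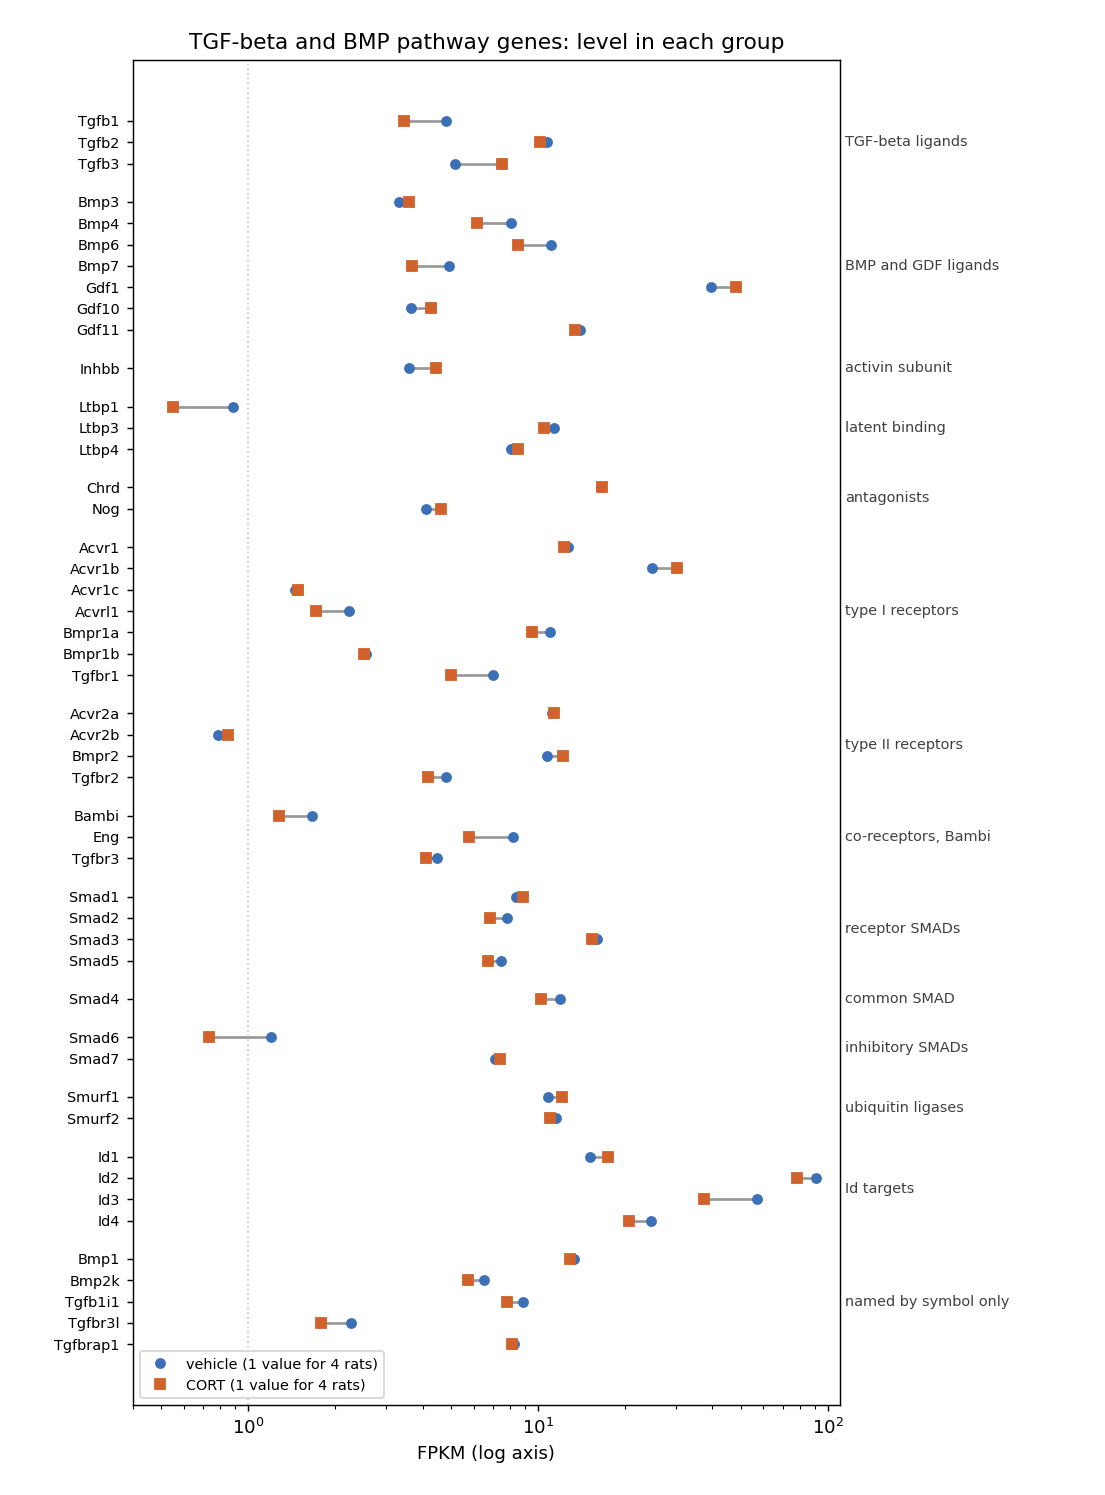
Level of each of the 48 pathway genes in FPKM (horizontal log axis) with vehicle (blue circles) and CORT (orange squares), 1 value for 4 rats each, grouped by role; the dotted line marks 1 FPKM. Id2 has the highest level at 90.9 and 78.1 FPKM, and the widest gaps among genes above 1 FPKM are those of Id3, Tgfb3, Eng, Tgfb1 and Tgfbr1.

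Of the type I receptors, the TGF-beta receptor Tgfbr1 and the endothelial receptor Acvrl1 were lower in the CORT group and the activin receptor Acvr1b was higher. Tgfbr1 was at 6.98 FPKM after vehicle and 5.02 FPKM after CORT (chromosome 5, 63050757 to 63119635; log2 ratio -0.48). Acvrl1, also called ALK1, was at 2.22 and 1.71 FPKM (log2 ratio -0.38), and its second transcript at 1.19 and 1.02 FPKM. Acvr1b, the most abundant receptor of the 48 genes, was at 24.8 and 30.3 FPKM (log2 ratio 0.29). The locus of Acvr1b is shared in the table with Grasp and an unnamed gene model, of which the main transcripts were at 18.8 and 9.83 FPKM with vehicle and 19.5 and 12.2 FPKM with CORT. The BMP receptor Bmpr1a was at 11.0 and 9.54 FPKM, while Bmpr1b, at 2.54 and 2.51 FPKM, and Acvr1, at 12.7 and 12.3 FPKM, were nearly equal in the groups. The minor transcript of Acvr1 was at 3.25 and 3.34 FPKM. Acvr1c, a receptor for activin and related ligands, was at 1.45 FPKM after vehicle and 1.49 FPKM after CORT. All 4 type II receptors were within the milder limit: Bmpr2 was at 10.8 and 12.2 FPKM, Acvr2a at 11.2 and 11.3 FPKM, and Tgfbr2 at 4.81 and 4.19 FPKM, with Acvr2b under 1 FPKM in both groups (0.790 and 0.855 FPKM). For TGF-beta, the receptor pair Tgfbr1 and Tgfbr2 was thus lower in both of its parts, with differences of -28.1% and -13.0%.

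The co-receptors present ligand to the kinase receptors, and Bambi is a decoy receptor without a kinase. Eng (endoglin), a co-receptor for TGF-beta and BMP9 on endothelium, was at 8.18 FPKM after vehicle and 5.78 FPKM after CORT (chromosome 3, 11679529 to 11717485; log2 ratio -0.50). Its minor transcript went the other way at a low level, from 0.894 to 1.14 FPKM, and with both summed the log2 ratio was -0.39. Bambi was at 1.66 and 1.28 FPKM (log2 ratio -0.37), and Tgfbr3 (betaglycan), which binds TGF-beta2 in particular, was at 4.48 and 4.12 FPKM. All 3 were lower with CORT, Eng and Bambi past the milder limit, where 45.8% of all symbols were lower and 9.52% lower past that limit.

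The SMADs that carry the signal differed little, and the exception was an inhibitory SMAD at a low level. Smad3, the most abundant, was at 15.9 FPKM after vehicle and 15.4 FPKM after CORT, Smad1 at 8.38 and 8.85 FPKM, and Smad5 at 7.43 and 6.75 FPKM. The main transcripts of Smad2 and Smad4 were a little lower, at 7.80 and 6.85 FPKM for Smad2 and 11.9 and 10.3 FPKM for Smad4. Minor transcripts of both genes lay on the other side. A Smad4 transcript went from 2.58 to 4.16 FPKM (log2 ratio 0.69), and 2 of Smad2 went from 1.76 to 1.98 FPKM and from 0.191 to 1.10 FPKM. With all transcripts of a symbol summed, the log2 ratio was -0.0037 for Smad4 and 0.027 for Smad2, so the summed level of each gene was nearly equal in the groups while the estimated shares of its transcripts were not. Smad6, which blocks BMP receptors and is an early target of BMP signals, was at 1.20 FPKM after vehicle and 0.735 FPKM after CORT (chromosome 8, 68898295 to 68966108). Its log2 ratio of -0.71 was the lowest of the 48 genes, and it was -0.34 with 1 FPKM added to both values. Smad7, which blocks TGF-beta and BMP receptors alike, was at 7.13 and 7.38 FPKM, so that its level was 5.94 times that of Smad6 with vehicle and 10.04 times with CORT. Of the ubiquitin ligases that degrade SMADs and receptors, Smurf1 was a little higher at 10.8 and 12.1 FPKM, with a minor transcript at 0.609 and 0.833 FPKM, and Smurf2 was at 11.6 and 11.0 FPKM.

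The Id genes encode inhibitors of basic helix-loop-helix transcription factors and are the best known direct targets of BMP signals. Id2 had the highest level of the 48 genes in both groups, followed by Id3 in the vehicle group and by Gdf1 in the CORT group. Id3 (transcript ENSRNOT00000035788.5, rn6 chromosome 5, 154489589 to 154491223) was at 56.9 FPKM after vehicle and 37.4 FPKM after CORT. That is a difference of -34.3% and a log2 ratio of -0.61, which was -0.59 with 1 FPKM added to both values and -0.62 when centred on the median of all symbols. Id3 was the 508th lowest of the 13272 symbols by log2 ratio. Id2, on chromosome 6, was at 90.9 and 78.1 FPKM (log2 ratio -0.22), and Id4, on chromosome 17, at 24.6 and 20.7 FPKM (log2 ratio -0.25). Id1, on chromosome 3 between 148215539 and 148216718, went the other way, from 15.2 to 17.5 FPKM (log2 ratio 0.21). Id3 was 3.75 times as abundant as Id1 in the vehicle group and 2.13 times in the CORT group. Only Id3 of the 4 was past either fold limit, where 9.52% of all symbols were lower past the milder limit and 3.99% by 1.5-fold.

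A further 5 genes share a name with the pathway but are neither ligands nor classical receptors. All 5 were lower, and Tgfbr3l alone of them was past the milder limit. Of all symbols, 45.8% were lower and 9.52% were lower past that limit. Apart from Tgfbr3l, the log2 ratios lay between -0.19 and -0.022. Bmp1, a protease that trims procollagen and frees ligands, was at 13.3 FPKM after vehicle and 12.9 FPKM after CORT. The kinase Bmp2k was at 6.51 and 5.73 FPKM, the focal adhesion protein Tgfb1i1 (Hic-5) at 8.89 and 7.82 FPKM, and the adaptor Tgfbrap1 at 8.27 and 8.14 FPKM. Tgfbr3l, a relative of betaglycan, was at 2.27 and 1.78 FPKM (log2 ratio -0.35).

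Genes that act around the pathway were listed separately, and 41 of the 57 listed symbols had a value. The list holds an older and a newer symbol of the same gene for Ctgf (Ccn2) and Cyr61 (Ccn1), and only the older ones had a value. Of these, 28 were higher and 13 lower, so that 31.7% were on the lower side, against 45.8% of all symbols, and their median log2 ratio was 0.044. Past the milder limit, 4 were higher, which is 9.76% against 5.88% of all symbols, and 5 were lower, which is 12.2% against 9.52%. Cyr61 alone was lower by at least 1.5-fold (0.962 and 0.540 FPKM, a mean below 1 FPKM), which is 2.44% of the list against 3.99% of all symbols. Of the targets, Ctgf, a matrix protein gene induced by TGF-beta, was at 5.89 FPKM after vehicle and 8.13 FPKM after CORT (log2 ratio 0.47), and Tgfbi at 3.69 and 2.81 FPKM (-0.39). Atoh8, a BMP target gene, was at 1.08 and 1.499 FPKM. The nuclear brakes Ski and Skil were at 21.2 and 12.7 FPKM with vehicle and 22.8 and 15.2 FPKM with CORT, and Trim33, which ubiquitinates Smad4, was at 5.53 and 4.00 FPKM (-0.47). The BMP antagonists outside the naming rule also differed among themselves, with Grem1 at 1.69 and 2.24 FPKM (0.41), Chrdl1 at 2.71 and 2.10 FPKM (-0.37) and Sostdc1, which choroid plexus expresses, at 31.3 and 25.6 FPKM (-0.29).

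Markers of several cell types and neighbouring tissues that can express these genes were mostly on the lower side in the CORT group. The counts of lower markers here and in the lists that follow stand beside 45.8% of all symbols that were lower. Of 11 meningeal fibroblast markers 10 were lower, with a median log2 ratio of -1.15 and a summed level of 178 FPKM after vehicle and 130 FPKM after CORT. Col3a1 and Aldh1a2, which had the lowest ratios of that list, went from 10.7 to 4.35 FPKM and from 10.2 to 3.78 FPKM. The most abundant of the list differed less, Igf2 at 59.0 and 46.3 FPKM and Mgp at 42.5 and 36.5 FPKM. Of 8 mural cell markers all were lower (median -0.55, sums 185 and 83.2 FPKM). Most of the difference between the sums was that of Tagln, a smooth muscle gene, at 105 and 22.5 FPKM. Rgs5 differed less, at 34.1 and 31.2 FPKM, as did Kcnj8, at 2.50 and 2.42 FPKM. Of 10 endothelial markers 9 were lower (median -0.15, sums 112 and 97.4 FPKM), 3 of them past the milder limit. Cdh5 had the lowest ratio, at 3.62 and 2.51 FPKM, and Cldn5, the most abundant, was at 50.8 and 45.6 FPKM. The exceptions were Dcn of the meningeal list (log2 ratio 0.095) and Flt1 of the endothelial list (0.013). Of the 48 pathway genes, 31 were lower, which is 64.6% against 45.8% of all symbols. Past the milder limit were 12 of these, namely Smad6, Ltbp1, Id3, Eng, Tgfb1, Tgfbr1, Bmp7, Bmp4, Bmp6, Acvrl1, Bambi and Tgfbr3l. The remaining 17 of the 48 genes were higher, with Tgfb3 (log2 ratio 0.53) alone past the milder limit. Inhbb (0.31) and Id1 (0.21) were among the rest. With 1 value per group only the direction can be compared, and the part of these cells in the pathway values was not tested.

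Of the glial lists, 7 of 8 astrocyte markers were lower (median -0.31, sums 1601 and 1111 FPKM). Most of the difference between the sums was that of Gfap, at 970 and 517 FPKM. Past the milder limit were 4 of the 8, namely Gfap, Sox9, Aldh1l1 and Aqp4. Agt, Gja1 and Slc1a3 had log2 ratios between -0.099 and -0.033, and Slc1a2 was higher at 159 and 175 FPKM. Lower too were 8 of 9 microglial markers (median -0.20, sums 308 and 267 FPKM), with Tmem119 the exception at 5.72 and 11.2 FPKM. So were 6 of 8 oligodendrocyte markers (median -0.18, sums 4817 and 4020 FPKM). Of 9 choroid plexus markers 7 were lower, with a median of -0.017. Aqp1 alone of them was past the milder limit, at 22.2 and 17.1 FPKM. Their sums of 6972 and 6937 FPKM were mostly Ttr, at 6605 and 6598 FPKM. Of 6 thalamic or habenular markers 5 were lower (median -1.19, sums 36.4 and 25.01 FPKM), and both pineal markers with a value were lower (sums 8.62 and 0.260 FPKM). Markers of hippocampal neurons lay slightly on the other side, 8 of 10 higher with a median of 0.10 and sums of 1744 and 1892 FPKM. Of all 13272 symbols, 7195 were higher. The exceptions in the neuron list were Prox1, at 10.9 and 8.96 FPKM, and Neurod6, at 128 and 119 FPKM. Zbtb20 alone of that list was past the milder limit, at a low level of 1.55 and 2.72 FPKM. None of the markers with a value was at 0 in either group, and the part of glia and neighbouring tissue in the values of Id2, Id3, Id4 and the other pathway genes was not tested.

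**Figure D4:**
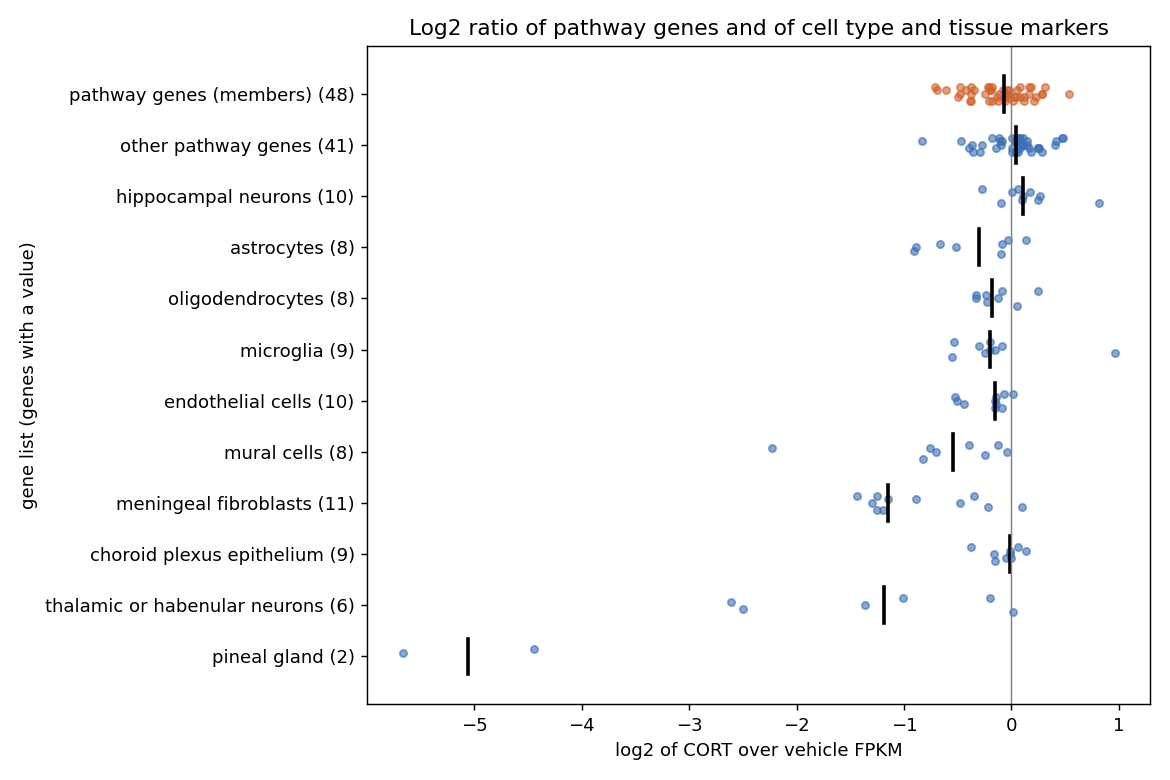
Log2 ratio of CORT over vehicle FPKM (horizontal axis) for each gene with a value in the 48 pathway genes (orange) and in the lists of other pathway genes and markers (blue); black bars are medians and the number of genes stands beside each list. The meningeal, mural, thalamic or habenular and pineal lists have the medians furthest to the left, and the median of the hippocampal neuron list lies to the right of 0.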

How the data were processed

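Stranded total RNA libraries of whole hippocampi were sequenced by the authors. The submitters' processing notes name CASAVA 1.8.2, TopHat2 2.0.10, Cuffdiff 2.2.0 and the rn6 genome. The authors deposited 1 FPKM value per Ensembl transcript and group, estimated over 4 rats with geometric normalization and corrections for multi-mapped reads, sequence bias and effective length. Transcripts under a minimum alignment count had been removed by them, so an absent gene may have been too low to keep. Levels of transcripts that share exons are estimates, which bears on the minor transcripts of Smad2, Smad4 and Eng. The table also holds fold changes, test statistics, p-values and q-values of the authors' own comparison, which were not used.

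Groups were taken from the treatment labels. The log2 ratio of CORT over vehicle was computed for the transcript with the highest mean FPKM of each symbol. With 1 value per group no test was possible. Members with a mean of at least 1 FPKM were named with both values, members past 1.5-fold also with a pseudocount of 1 FPKM, and minor transcripts at least where they lay past the milder limit in the other direction. None of the other pathway genes met the rule for naming (1.5-fold and a mean of at least 1 FPKM), so those named, like the single markers and the 6 promoters, were chosen after their values or motifs were seen. The members, lists and motifs were chosen with earlier results of these data known. Promoter motifs were planned over windows that reach past the start, but only the 250 bases before it were searched. Where a symbol had several windows the first was taken. Alternatives were other fold limits, filters at 1 FPKM, pseudocounts of 1 and 0.1 FPKM, centring on the median of all symbols, and other choices of transcript. Python 3.11.15, numpy 2.4.6, pandas 2.3.3 and matplotlib 3.10.9 were used.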

Additional observations from a re-analysis of the deposited data

How the results depend on the processing

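The count of genes lower by at least 1.5-fold was 3 of 48, where 3.99% of all symbols were. It was 12 at a limit of 0.32 on the log2 scale (9.52% of all symbols) and 0 at 2-fold (1.46%). It was 1 of 45 with a mean of at least 1 FPKM (3.06% of all symbols). With at least 1 FPKM in both groups it was also 1 of 45 (2.5%), and with a pseudocount of 1 FPKM 1 of 48 (1.82%). The count of genes higher was 0, where 1.92% of all symbols were. It was 1 at a limit of 0.32 (5.88% of all symbols). When the lowest transcript of each symbol was taken it was 2 of 48 (Smad2 and Smad4), where 4.32% of all symbols were higher. Smad6 and Ltbp1 have low values, so the filters leave out both of them and the pseudocount shrinks them by construction. Under the other alternatives, a pseudocount of 0.1 FPKM, centring and summing of transcripts, the counts were 0 higher and 3 lower. Of all symbols, between 1.77% and 1.81% were higher and between 3.74% and 4.17% lower by 1.5-fold under those alternatives. The median log2 ratio of the pathway genes lay between -0.092 and -0.030 under the alternatives and moved by less than 0.1. Of the 48 genes, 5 changed sign with the lowest transcript, 1 with transcripts summed (Smad2) and 1 when centred (Chrd), and the value moved by at least 0.1 for 7, 3 and 0 of them, and for 5 with a pseudocount of 1 FPKM. No paired analysis was possible because the values used are 1 per group and carry no rat numbers, and leaving out each rat in turn could not be done for the same reason. The counting error of Ltbp1, Smad6 and Acvr2b, which have mean levels under 1 FPKM, is unknown because the depth is.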
